A study of Mus musculus with 6 samples.

Results

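Cdkl1 to Cdkl4 are cyclin-dependent kinase-like genes, and their RNA was followed in kidneys of diabetic mice with and without long-term atorvastatin. The genes were taken by symbol from the gene table and were chosen by their measured difference between the groups, above all that of Cdkl1. They make up 4 of 17684 genes, and 59 of 54723 transcripts belong to them. Because the same comparison was used to choose them, the values of Cdkl1 to Cdkl4 are given as a description, with no test.

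Kidney RNA of db/db mice, which lack a working leptin receptor and become obese and diabetic, was sequenced in 6 libraries. All mice were 50 weeks old, of the strain labelled C57 BLKS/L, and had been treated for 40 weeks. The Db group (3 libraries) received normal saline, and the Db + Ato10 group (3 libraries) received atorvastatin, an inhibitor of cholesterol synthesis, at 10 mg per kg and day. The comparison asks how kidney gene expression differed after this treatment. A non-diabetic group was not analysed here, so levels in Db kidneys are not set against healthy ones.

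Kinases of the Cdkl family phosphorylate serine and threonine and belong, with the cyclin-dependent kinases and the MAP kinases, to the CMGC group of kinases. Relatives of Cdkl1 in worms and algae sit at or near the cilium and influence its length. In the kidney, most tubule cells carry a primary cilium, a single antenna that is built by intraflagellar transport and whose defects cause cystic kidney disease.

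The libraries held 13134930, 11381678 and 12426051 counts in Db replicates 1 to 3 and 14578023, 14667909 and 13133241 in Db + Ato10 replicates 1 to 3. At these depths 3 counts equal 0.198 to 0.260 CPM (counts relative to normalized library size), which covers counting error only. Some libraries stood apart. On a principal component with 71.1% of the variance, the Db libraries lay at -55.4, -26.9 and -52.0 and the Db + Ato10 libraries at 107, 46.1 and -18.8. Db + Ato10 replicate 1 was thus farthest from all others, and Db + Ato10 replicate 3 lay next to Db replicate 2. The 4 Y-linked genes together had 2 counts in Db replicate 1 and 1419 to 2116 in the other libraries, although the study's methods describe male mice. Results for the Cdkl genes are therefore also given without single libraries.

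Cdkl1, the most abundant of the 4 kinases, was lower in Db + Ato10 kidneys. Its level was 115, 128 and 138 CPM in Db replicates 1 to 3 and 52.0, 45.6 and 63.0 CPM in Db + Ato10 replicates 1 to 3. All Db libraries were high and all Db + Ato10 libraries were low, with a gap of 52.3 CPM between the nearest libraries of the groups. The means were 127 ± 11.4 CPM in Db and 53.5 ± 8.82 CPM in Db + Ato10 (SD, n = 3). The fitted log2 fold change (Db + Ato10 over Db) was -1.25 with a standard error (SE) of 0.17, a level 2.37-fold higher in Db. These values rested on 1451, 1476 and 1710 counts in Db and 790, 675 and 800 counts in Db + Ato10, so the groups were also apart before scaling.

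The low level was present in the library that resembled the Db kidneys most. The log2 fold change of Cdkl1 was -1.38 when Db + Ato10 replicate 3 was left out and -1.22 when Db + Ato10 replicate 1 was. Leaving out Db replicate 1, the library with few Y-linked counts, gave -1.30. Among the 13679 genes with enough counts to be compared, 169 had a lower log2 fold change than Cdkl1, and the median gene was at -0.0063. Of the 4619 genes at least as abundant as the lowest Cdkl1 library (by mean CPM), 34 had a lower one. Since this comparison chose Cdkl1, nothing is read from its place among the fold changes. By FPKM, which is scaled to gene length and depth, Cdkl1 ranked 1197 of 17684 genes in Db and 2748 in Db + Ato10.

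Cdkl2 is a relative of Cdkl1 that was first described as a kinase responsive to epidermal growth factor. Its level was 16.8, 14.7 and 16.1 CPM in Db and 12.0, 14.0 and 13.0 CPM in Db + Ato10 replicates 1 to 3. The Db libraries were all higher, but Db replicate 2 and Db + Ato10 replicate 2 were close to each other. The means were 15.9 ± 1.07 CPM and 13.0 ± 0.995 CPM (SD, n = 3), with a log2 fold change of -0.29 (SE 0.16). The groups were apart with TMM, DESeq2 or upper-quartile scaling and in FPKM and TPM, whereas the unscaled counts of 212, 170 and 199 in Db and 182, 207 and 165 in Db + Ato10 overlapped.

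Cdkl3, a less studied kinase of the family, had 4.37, 4.94 and 5.49 CPM in Db and 5.60, 7.23 and 3.07 CPM in Db + Ato10. The Db + Ato10 libraries lay on both sides of the Db libraries, so the groups overlapped. The log2 fold change was 0.10 (SE 0.35), which became -0.16 on leaving out Db + Ato10 replicate 2 and 0.38 on leaving out replicate 3 of that group. On the annotation the gene overlaps Ube2b, a ubiquitin-conjugating enzyme with a mean of 71.9 FPKM in Db and 76.5 FPKM in Db + Ato10. The counting is not stated to use strand, so how reads were divided between this pair is uncertain.

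Cdkl4, the closest relative of Cdkl1 in the family, was near the lower end of what was measured. It had 12, 14 and 15 counts in Db and 11, 21 and 19 counts in Db + Ato10. The means were 1.13 ± 0.150 CPM and 1.21 ± 0.425 CPM (SD, n = 3). The groups overlapped, and by CPM Db + Ato10 replicate 1 was lowest and Db + Ato10 replicate 3 highest. The log2 fold change was 0.10 (SE 0.40), smaller than its standard error. Its sign changed, to -0.017 and -0.067, on leaving out replicate 2 or 3 of the Db + Ato10 group, while leaving out replicate 1 gave 0.38.

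**Figure D1:**
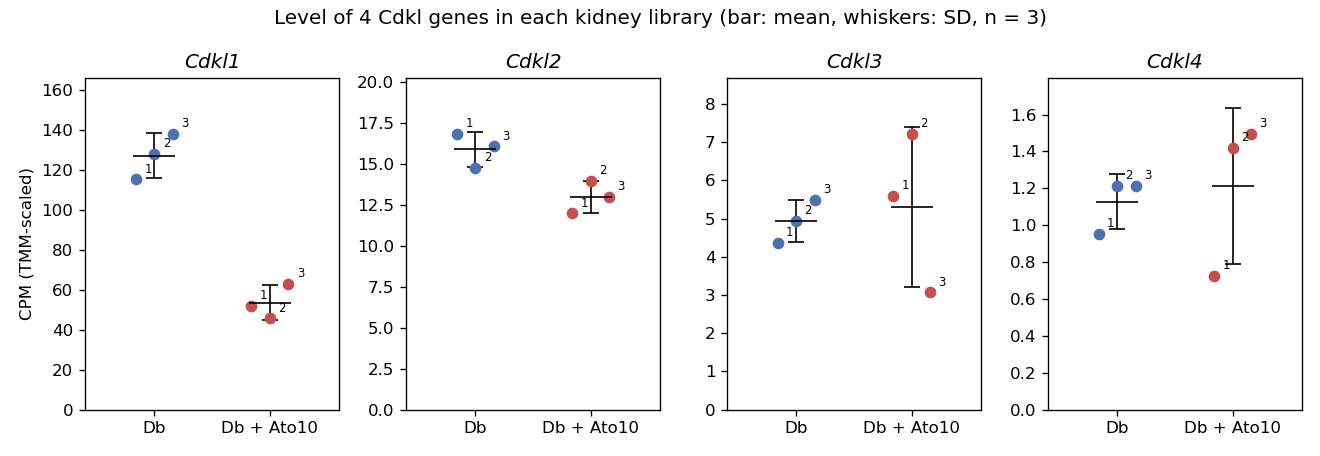
Level of Cdkl1 to Cdkl4 in CPM (vertical axes, each from 0 and with its own scale) in 3 Db and 3 Db + Ato10 libraries, with replicate numbers beside the points, bars at the mean and whiskers of 1 SD. Db libraries of Cdkl1 sit between 115 and 138 CPM, above Db + Ato10 libraries between 45.6 and 63.0 CPM, while the groups overlap for Cdkl3 and Cdkl4.

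All 4 genes passed the filter on low counts. Of these, 2 of 4 had groups that did not overlap and were lower in Db + Ato10. Over all compared genes, 1540 of 13679 (11.3%) were apart in that direction and 1640 (12%) in the other; since this comparison chose the genes, nothing is read from their count.

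The order of the levels was the same in every library when genes were compared per length. In Db kidneys Cdkl1 had 79.2 ± 9.42 FPKM, Cdkl2 4.07 ± 0.200, Cdkl3 1.72 ± 0.238 and Cdkl4 0.407 ± 0.0611 FPKM (SD, n = 3). In Db + Ato10 kidneys the FPKM levels were 33.7 ± 4.99, 3.34 ± 0.218, 1.77 ± 0.582 and 0.447 ± 0.136 in the same order. Neighbours in this order were apart by more than their SD in both groups. Cdkl1 made up 91.8%, 93.2% and 93.0% of the summed FPKM of the 4 genes in Db and 86.4%, 81.7% and 88.7% in Db + Ato10. The share was lower in all Db + Ato10 libraries, yet Cdkl1 still held most of the family's RNA there.

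At the transcript level, 5 models of Cdkl1, 9 of Cdkl2, 39 of Cdkl3 and 6 of Cdkl4 were listed, and 10 of these 59 had enough counts to be compared. The main Cdkl1 transcript, NM_183294.2, had 830.27, 1035.56 and 1097.24 counts in Db and 547.37, 327.47 and 455.67 counts in Db + Ato10. All Db libraries were higher, with a log2 fold change of -1.34 (SE 0.26). It held 63.8 ± 6.48% of the gene's counts in Db and 58.3 ± 10.4% in Db + Ato10 (SD, n = 3), shares that overlapped between the groups.

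The predicted model XM_017315202.1 had 405.26, 173.89 and 292.25 counts in Db and 92, 115.59 and 111.96 in Db + Ato10, again without overlap, with a log2 fold change of -1.61 (SE 0.34). The other predicted models were less clear. XM_017315203.1 had 143.08, 154.77 and 213.37 counts in Db and 79.64, 199.58 and 159.25 in Db + Ato10, or 11.3, 13.4 and 17.1 CPM against 5.49, 13.8 and 12.5 CPM, so the groups overlapped. Its log2 fold change was -0.40 (SE 0.41), and on leaving out single libraries it lay between -0.63 and -0.082, the latter without Db + Ato10 replicate 1. Its share of the gene was 10.9 ± 1.37% in Db and 19.9 ± 9.74% in Db + Ato10. XM_011244177.2 overlapped as well, at -0.87 (SE 0.48), and lay between -1.25 and -0.57 on leaving out single libraries. XM_011244176.2 had counts in 3 libraries and at most 23.51. Over all compared transcripts, 2634 of 30175 (8.73%) were apart and lower in Db + Ato10, beside 2 of the 10 transcripts of the Cdkl genes. These were NM_183294.2 and XM_017315202.1 of Cdkl1, and since this comparison chose the gene, nothing is read from their count.

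**Figure D2:**
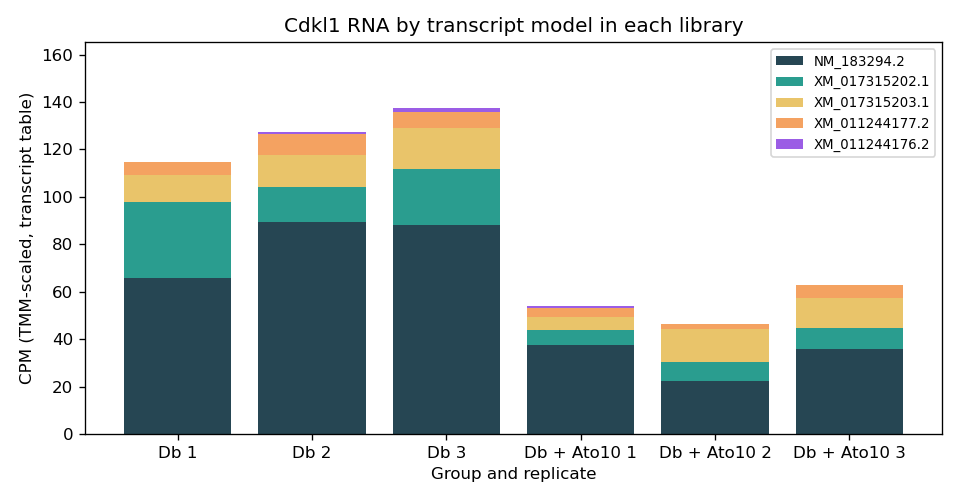
Stacked bars of Cdkl1 RNA in CPM by transcript model for each library of the Db and Db + Ato10 groups. NM_183294.2 is the largest segment in all 6 libraries, and the whole bars of the Db + Ato10 libraries are shorter than those of the Db libraries.

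Transcripts of the other genes were estimated from few reads. For Cdkl2, NM_016912.2 held 63.4 ± 12.5% of the counts in Db and 52.5 ± 21.7% in Db + Ato10, and its groups overlapped (log2 fold change -0.52, SE 0.38). NM_177270.4 of Cdkl2 ranged from 0 counts in Db + Ato10 replicate 3 to 83.93 counts in Db replicate 1. For Cdkl3, XM_011248874.2 and NM_153785.4 were the models with enough counts, with 5.13 to 32.55 and 3.35 to 18.9 counts per library. Models of Cdkl4 each had counts in at most 2 libraries. Such values show how reads were divided between models of the same gene, and no transcript of these 3 genes that was compared had groups apart.

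Genes beside Cdkl1 on the chromosome included Gm31679 and Atp5s on one side and Map4k5, Atl1 and Sav1 on the other. Sav1, an adaptor of Hippo signalling, had 42.0 ± 4.74 CPM in Db and 60.9 ± 14.9 CPM in Db + Ato10 (SD, n = 3). For these 5 genes the groups overlapped, with log2 fold changes between -0.41 (Gm31679) and 0.54 (Sav1). A microRNA gene, Mir681, and a long noncoding RNA gene, 4930512B01Rik, overlap Cdkl1 on the annotation and have no row of their own, so reads from them could not be told apart from those of Cdkl1.

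Neighbours of the other genes were described in the same way. Around Cdkl2, Parm1, Rchy1, G3bp2 and Uso1 lay between -0.31 and -0.053 on the log2 scale, and Odaph and Gm46933 had too few counts. A protein-coding gene, Gm46915, overlaps Cdkl2 on the annotation and has no row of its own. Reads from it could not be told apart from those of Cdkl2. Around Cdkl3, Cdkn2aipnl had 26.0 ± 1.02 CPM in Db and 36.5 ± 6.33 CPM in Db + Ato10 (SD, n = 3), with groups apart, while Jade2, Ube2b and Ppp2ca overlapped and Olfr1373 and Gm12206 had too few counts. Around Cdkl4, the groups overlapped for Morn2, Arhgef33, Sos1, Map4k3, Tmem178 and Thumpd2, with log2 fold changes between -0.50 and 0.060.

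Promoter sequences of 3 of the 4 genes were found in RefSeq (assembly GRCm38.p6), in windows from 250 bases before to 50 bases after a transcript start. The window of Cdkl1 lies at chr12:69790658-69790957 on the minus strand. It has 64.7% G and C and 19 CG dinucleotides, against medians of 52.7% and 7 over all windows. Of the windows of Cdkl4, the one at chr17:80577435-80577734 on the minus strand has 54.7% G and C and 13 CG dinucleotides.

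Genes of the cilium are often controlled by RFX factors, which bind a motif named the X-box, so both strands were searched for a short part of it, GTTNCC. These letters are present in 45.3% of 32851 RefSeq windows. Cdkl1 has them at bases 231 to 236 of its window. Of the 2 windows of Cdkl2, 1 holds them, and of the 2 windows of Cdkl4, the one described above holds them at 3 places and the other at none. The window of Cdkl1, where the difference in level was large, and the matching window of its closest relative Cdkl4 are shown 5′ to 3′, with these letters in capitals; a match of letters is no evidence of binding.
Cdkl1: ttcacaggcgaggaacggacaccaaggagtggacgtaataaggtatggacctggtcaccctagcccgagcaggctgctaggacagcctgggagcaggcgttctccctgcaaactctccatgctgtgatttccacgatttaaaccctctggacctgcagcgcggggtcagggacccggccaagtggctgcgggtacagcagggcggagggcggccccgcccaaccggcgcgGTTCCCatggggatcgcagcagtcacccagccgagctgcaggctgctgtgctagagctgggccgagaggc
Cdkl4: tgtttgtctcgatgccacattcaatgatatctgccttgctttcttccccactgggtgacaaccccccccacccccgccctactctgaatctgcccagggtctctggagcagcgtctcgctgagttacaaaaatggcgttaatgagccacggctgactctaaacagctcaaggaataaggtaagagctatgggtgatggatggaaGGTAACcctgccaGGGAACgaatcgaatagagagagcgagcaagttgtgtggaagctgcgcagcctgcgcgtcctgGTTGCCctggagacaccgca

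Related kinases were not uniformly lower. Across the whole table, edgeR's quasi-likelihood test called 0 of 13679 genes (0%) at an adjusted p under 0.05 and a fold change over 1.5, with a smallest adjusted p of 0.239. At an unadjusted p under 0.05 it found 2314 genes, 1533 higher (11.2%) and 781 lower (5.71%) in Db + Ato10. DESeq2 called 884 genes by the same criteria, 707 higher and 177 lower. Without Db + Ato10 replicate 3 edgeR called 1106 genes, and the number at an unadjusted p under 0.05 was then 4038; leaving out Db replicate 1 gave 1043, Db replicate 3 gave 1113 and Db + Ato10 replicate 2 gave 1534. The labels do not say that libraries came from separate mice, so p-values measure the spread between these samples.

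Of 4 CMGC kinases of the cilium, which limit its length or act in its traffic, 3 had enough counts. At an unadjusted p under 0.05, 0 were higher and 0 lower (11.2% and 5.71% over all genes). Mok had 10.5 ± 1.82 CPM in Db and 7.93 ± 1.38 CPM in Db + Ato10, with overlapping groups and a log2 fold change of -0.41 (SE 0.24). Ick, the intestinal cell kinase, had 15.8 ± 2.76 and 21.3 ± 2.90 CPM (SD, n = 3), at 0.43 (SE 0.19), with groups apart. Cdk20 overlapped, at 0.46 (SE 0.28), and Mak had too few counts. These kinases lay on both sides of 0, with a median of 0.43, which was 0.23 on leaving out Db + Ato10 replicate 1.

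Among 17 cyclin-dependent kinases compared, which drive the cell cycle or transcription, 4 were higher and 0 lower at an unadjusted p under 0.05 (11.2% and 5.71% over all genes), and the median log2 fold change was 0.087 (0.054 on leaving out Db replicate 3, 0.14 on leaving out Db + Ato10 replicate 3 and 0.017 with limma on log2(TPM + 1)). Cdk6, a kinase of the G1 phase, had 22.3, 24.1 and 20.6 CPM in Db and 52.8, 52.9 and 28.0 CPM in Db + Ato10, a log2 fold change of 1.00 (SE 0.26). Cdk13, a kinase of transcription, had groups apart in the other direction at -0.12 (SE 0.11), and Cdk4, the most abundant, overlapped at 0.48 (SE 0.21). The count of 4 became 2 on leaving out Db replicate 3, and likewise 2 on leaving out Db + Ato10 replicate 2.

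Of 14 MAP kinases, which relay signals from growth factors and stress, 5 were higher and 1 lower at an unadjusted p under 0.05 (11.2% and 5.71% over all genes), with a median log2 fold change of 0.24. Mapk11, a p38 kinase, had 3.34, 2.77 and 3.88 CPM in Db and 18.6, 9.18 and 4.25 CPM in Db + Ato10, so its Db + Ato10 libraries were widely spread. Mapk10, a JNK kinase, had 2.34 ± 0.520 CPM in Db and 1.03 ± 0.552 CPM in Db + Ato10 (SD, n = 3), with groups apart and a log2 fold change of -1.18 (SE 0.48). Mapk3, the most abundant, overlapped at 0.41 (SE 0.22). The count of 5 became 2 on leaving out any given Db replicate. Leaving out Db + Ato10 replicate 2 gave a count of 3 and a median of 0.085, and leaving out Db + Ato10 replicate 1 a median of 0.15.

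Genes of intraflagellar transport and of the BBSome, which carries membrane proteins of the cilium, had a median log2 fold change of -0.29. Of 34 genes compared, 30 had a log2 fold change under 0, against 6922 of all 13679 genes, and several of these were close to 0. By edgeR 0 were called at an adjusted p under 0.05, 8 were lower and 0 higher at an unadjusted p under 0.05, and 9 had groups apart and lower against 1 apart and higher. Over all genes 5.71% were lower and 11.2% higher at an unadjusted p under 0.05. By groups apart, 11.3% of all genes were lower and 12% higher. The median was -0.17 on leaving out Db + Ato10 replicate 1. Bbs1, a BBSome subunit, had 21.0, 22.9 and 27.0 CPM in Db and 10.7, 13.8 and 18.4 CPM in Db + Ato10, with a log2 fold change of -0.73 (SE 0.24). Ift43 was apart in the other direction at 0.33 (SE 0.18), and Ift20, the most abundant per length, overlapped at -0.045 (SE 0.15). The count of 8 moved with each library: leaving out Db replicates 1, 2 or 3 gave 3, 5 or 2, and leaving out Db + Ato10 replicates 1, 2 or 3 gave 3, 2 or 13.

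Of 24 genes of the transition zone, the gate at the base of the cilium, and of the ciliary membrane, 17 had a log2 fold change under 0, 1 was lower and 0 higher at an unadjusted p under 0.05 (5.71% and 11.2% over all genes), and the median was -0.19. It was -0.092 on leaving out Db replicate 2 and -0.11 on leaving out Db + Ato10 replicate 1. Pkd2, a calcium channel of the cilium that is mutated in polycystic kidney disease, was the most abundant and had 298, 231 and 279 CPM in Db and 144, 154 and 193 CPM in Db + Ato10. All Db libraries were higher, with a log2 fold change of -0.72 (SE 0.18). Iqcb1 was apart in the other direction at 0.29 (SE 0.21).

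Hedgehog signalling depends on the cilium, and of its 13 genes compared, 2 were higher and 0 lower at an unadjusted p under 0.05 (11.2% and 5.71% over all genes), with a median of -0.070. The sign of this median depended on the libraries: it was 0.039 on leaving out Db replicate 1 and 0.091 on leaving out Db replicate 3, and limma on log2(FPKM + 1) gave 0.024. Gas1, a co-receptor, was apart and lower at -0.29 (SE 0.15), and the signal transducer Smo overlapped at -0.19 (SE 0.17). Of 9 genes of mitosis, 7 were higher (11.2% over all genes) and 0 lower at an unadjusted p under 0.05, with a median of 1.73, or 0.80 with limma on log2(FPKM + 1). For 8 of the 9 the groups overlapped, and 1 was apart and higher (12% over all genes). The exception, cyclin A2 (Ccna2), had 3.34, 3.55 and 2.67 CPM in Db and 11.8, 12.3 and 4.57 CPM in Db + Ato10, and Ube2c, the most abundant per length, was at 0.80 (SE 0.40). The count of 7 became 1 on leaving out Db replicate 3 and 1 with limma-voom.

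**Figure D3:**
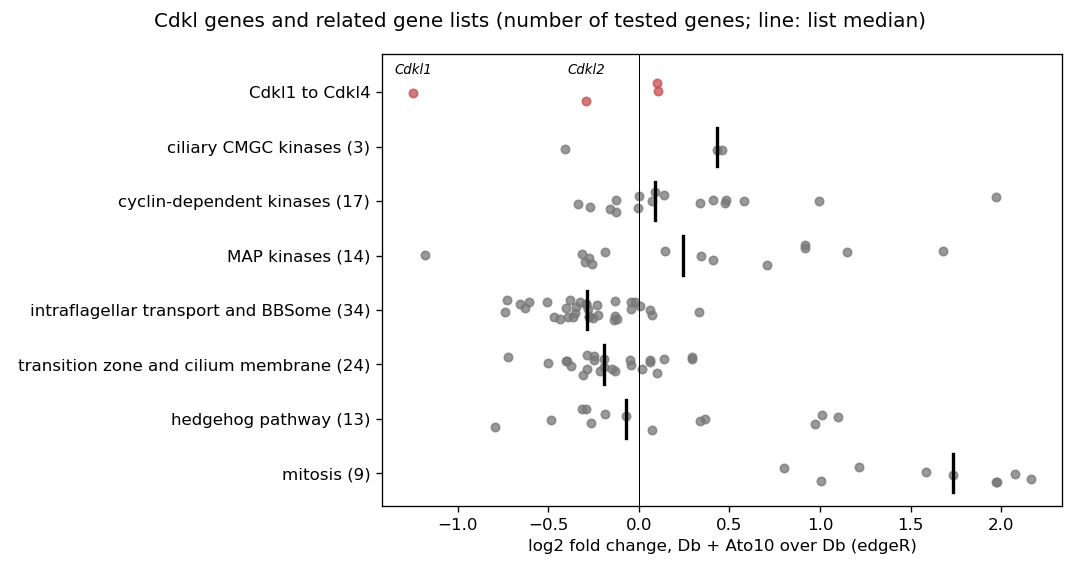
Log2 fold change (horizontal axis, Db + Ato10 over Db) of each compared gene of 7 lists, with a line at each list's median, below Cdkl1 to Cdkl4. Cdkl1, which was chosen by this difference, lies at -1.25, left of every gene of these 7 lists. The medians of intraflagellar transport and mitosis are -0.29 and 1.73. Lists of cell type markers are not drawn, and some of their genes had lower values than Cdkl1.

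Markers of the thick ascending limb and the distal convoluted tubule were lower together with Cdkl1. In bulk tissue, fewer cells of a type and less RNA per cell cannot be told apart. Of 7 markers of the thick ascending limb, 7 had a log2 fold change under 0 and 5 had groups apart and lower, with a median of -1.03, where over all genes 6922 of 13679 were under 0 and 11.3% were apart and lower. Their summed level was 2782, 3303 and 3047 FPKM in Db and 1896, 876 and 2230 FPKM in Db + Ato10, with Umod the most abundant. All Db + Ato10 libraries were lower, as for Cdkl1, with Db + Ato10 replicate 2 lowest in both.

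Of 6 markers of the distal convoluted tubule, 6 had groups apart and lower (11.3% over all genes), with a median of -1.12. Their sum was 1301, 1476 and 990 FPKM in Db and 746, 338 and 617 FPKM in Db + Ato10, with Calb1 the most abundant. Of 9 markers of the collecting duct, 7 had groups apart and lower, beside the same 11.3%, with a median of -0.68. Their sum was 603, 512 and 827 FPKM in Db and 534, 328 and 501 FPKM in Db + Ato10, which overlapped, with Aqp2 the most abundant. None of the markers of these segments was at 0 in all libraries.

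Cdkl1 was also set against these sums, a ratio chosen after seeing the data. Per 100 FPKM of thick ascending limb markers, Cdkl1 had 2.47, 2.49 and 2.84 FPKM in Db and 1.81, 3.25 and 1.72 FPKM in Db + Ato10, where Db + Ato10 replicate 2 was the highest of all. Per 100 FPKM of distal convoluted tubule markers it had 5.28, 5.58 and 8.76 in Db and 4.60, 8.40 and 6.22 in Db + Ato10, which overlapped. Per 100 FPKM of collecting duct markers it had 11.4, 16.1 and 10.5 in Db and 6.43, 8.66 and 7.66 in Db + Ato10, which did not. The part of these cell types in the level of Cdkl1 was not tested.

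Markers of the proximal tubule followed another pattern across the libraries. All 8 had a log2 fold change under 0 (6922 of 13679 over all genes), with a median of -0.81. Of the 8, 1 had groups apart and lower, near the 11.3% over all genes. Their sum was 3134, 2623 and 3257 FPKM in Db and 525, 1512 and 3107 FPKM in Db + Ato10, with Slc34a1 the most abundant, so Db + Ato10 replicate 3 was at the level of the Db libraries. Cdkl1 was low in that library too. Per 100 FPKM of these markers Cdkl1 had 2.19, 3.14 and 2.66 FPKM in Db and 6.55, 1.88 and 1.23 FPKM in Db + Ato10, which overlapped.

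Markers of other cells were higher in Db + Ato10, unevenly across its libraries. The sum of 8 leukocyte markers was 10.2, 19.9 and 8.72 FPKM in Db and 14266, 180 and 20.7 FPKM in Db + Ato10, with S100a8, a protein of neutrophils, the most abundant. Cd3e and Ms4a1, which mark lymphocytes, had too few counts to be compared. Of the 5 that were compared, 3 had groups apart and higher (12% over all genes), with a median of 4.32.

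The sum of 6 fibroblast and pericyte markers, with Dcn the most abundant, was 37.9, 47.3 and 42.3 FPKM in Db and 455, 150 and 63.7 FPKM in Db + Ato10. Of these, 4 had groups apart and higher (12% over all genes), with a median of 2.58. The sum of 8 markers of urothelium and squamous epithelium, with Krt5 the most abundant, was 4.27, 2.28 and 3.06 FPKM in Db and 72.5, 34.0 and 11.3 FPKM in Db + Ato10. Of the 4 compared, 2 had groups apart and higher (12% over all genes), namely the keratins Krt5 and Krt14, and the median was 4.26. Upk1a, the uroplakin with enough counts, had overlapping groups and a log2 fold change of -0.66 (SE 0.44), and Upk1b, Upk2, Upk3a and Krt13 had too few counts. For each of these lists Db + Ato10 replicate 1 was highest and replicate 3 lowest within the group, an order that Cdkl1 did not have, and their part in its level was not tested.

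Markers of the other cell types had medians nearer 0 or low sums. Podocyte markers had a median of -0.042 and endothelial markers of -0.19, with Podxl and Emcn the most abundant. Markers of multiciliated cells, whose motile cilia differ from the primary cilium, summed to at most 3.79 FPKM in any library, with Rsph1 the most abundant. Of 9 such genes 2 had enough counts, with a median of -0.32. Neuron and glia markers had a median of 0.056 over 2 genes, with Mbp the most abundant, and Cidec was the most abundant of the adipocyte markers, whose sum was at most 0.99 FPKM and whose median, over 1 gene, was 1.58.

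Genes with a pattern like that of Cdkl1 were ranked by Pearson's r of log2 CPM over the 6 libraries, as a description in which the libraries fall into the treatment groups. The highest were Adra2c, an adrenergic receptor (r = 0.998), Prox1, a homeobox transcription factor (0.996), Dusp18, a dual-specificity phosphatase (0.995), Osbpl2, an oxysterol-binding protein (0.992), Rab11fip4, an effector of Rab11 vesicle traffic (0.992), and Cep126, a centrosomal protein (0.990). Prox1 had 14.9, 19.6 and 19.8 CPM in Db and 6.19, 5.40 and 8.03 CPM in Db + Ato10. Cep126 had 9.62, 10.5 and 11.4 CPM in Db and 5.93, 5.81 and 7.40 CPM in Db + Ato10. The libraries stood in the same order as for Cdkl1 (Spearman correlation of 1), which follows largely from choosing these genes by r.

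The lowest were Ctps, a CTP synthase (r = -0.990), Reg3g, a secreted antimicrobial lectin (-0.987), and Ankrd1, an ankyrin repeat protein of stressed tissue (-0.986). Ctps had 25.5, 21.7 and 22.0 CPM in Db and 50.1, 67.6 and 42.5 CPM in Db + Ato10. Reg3g had 0 CPM in all Db libraries and 45.1, 36.9 and 10.6 CPM in Db + Ato10. These genes were highest in Db + Ato10 libraries and did not overlap between the groups.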

How the data were processed

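RNA of 6 kidney libraries was analysed, and groups and replicate numbers came from the sample labels. The labels conflict: a general treatment field names atorvastatin for all 6 samples, and the groups rest on the field that separates saline from the drug. The authors deposited expected counts (estimated reads, not normalized) per gene and transcript. The authors also deposited FPKM (scaled to length and depth) per gene, and TPM (scaled to length, with equal library totals) per gene and transcript. The submitters' processing notes name HISAT, Bowtie2 2.2.5 and build mm9, without roles; the counting tool is not given in the sources used here.

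Expected counts were rounded, and features that reached 10 counts in 3 or more libraries were fitted with edgeR 4.0.16 (TMM, quasi-likelihood F test, Benjamini-Hochberg adjustment) in R 4.3.3. Log2 CPM used a prior count of 2. Standard errors are the log2 fold change over the square root of F. Limma 3.58.1 and DESeq2 1.42.0 gave alternatives, and matplotlib 3.10.9 in Python 3.11.15 drew the plots. Lists were matched by symbol, with 207 of 209 entries in the table (Lep and Xist were unmatched). RefSeq (GRCm38.p6) gave names, gene order and promoters.

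Named genes were the 4 kinases and their transcripts, 3 listed neighbours on each side, the 6 genes most and 3 least like Cdkl1, and from each list its most abundant gene; from lists of related genes also those with the largest rise and fall without overlap. Some genes that this rule named are not reported here. The genes and lists were chosen with earlier results of these data known, and the ratio of Cdkl1 to marker sums was added after seeing the data.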

Additional observations from a re-analysis of the deposited data

How the results depend on the processing

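The log2 fold changes of Cdkl1 and Cdkl2 kept their sign in 16 of 16 alternatives each, from -1.38 to -1.13 (Cdkl1) and from -0.34 to -0.23 (Cdkl2) with a library left out. Those of Cdkl3 and Cdkl4 kept it in 14 of 16 each, from -0.16 to 0.38 and from -0.067 to 0.38 with a library left out; for Cdkl3, limma on log2(TPM + 1) also gave a negative value, -0.078. Other settings gave -1.33 to -1.21 for Cdkl1.

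DESeq2 called 884 genes where edgeR called 0. With a library left out, edgeR called 0 to 1106 genes, 1043 to 4038 had an unadjusted p under 0.05, and 3833 to 6800 had groups apart, against 3180 with all libraries, a count that grows by construction with fewer libraries. At an unadjusted p under 0.05, leaving out a library gave 2 to 13 lower genes of intraflagellar transport and BBSome, 2 to 6 higher cyclin-dependent kinases, 2 to 5 higher MAP kinases and 1 to 9 higher mitosis genes (1 with limma-voom). The MAP kinase median was then 0.085 to 0.28, and 0.12 (limma on log2(TPM + 1)) to 0.36 (at least 10 counts in every library) in other settings. The cause was not tested.

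Same-numbered libraries deviated from their group means with correlations of -0.15, 0.061 and 0.21, and not every library correlated best with its own number, so the numbers were not treated as pairs. With the replicate block, the log2 fold changes of Cdkl1 to Cdkl4 were -1.26, -0.29, 0.037 and 0.061, 0 genes were called, 1856 had an unadjusted p under 0.05, and 5 genes of intraflagellar transport and BBSome were lower.

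Counts were low for Cdkl4, with 11 to 21 per library, and for most transcripts of Cdkl2, Cdkl3 and Cdkl4.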
